A study of Mus musculus with 10 samples.

Results

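The p53 pathway was examined in mouse liver through 10 genes: Trp53, which encodes p53 itself, its antagonist Mdm2, and the p53 target genes or partners Cdkn1a, Ei24, Sesn1, Sesn2, Trp53inp1, Gdf15, Btg2 and Gadd45a. Every probe set that the array annotation pairs with one of these symbols and no other gene was taken, which gave 16 of 25958 probe sets for 8 of the 10 genes. No probe set was paired with Trp53 or Gdf15 alone in the table used here, so the levels of these 2 transcripts are not given. Of the 16 probe sets, 13 had a mean at or above 3.60, the 25th percentile of all values, called the floor here, and 3 lay below it.

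Livers of 5 mutant mice of the genotype DicerloxP/loxP;Afp-Cre+ were set against livers of 5 control mice. Mutants carried floxed alleles of Dicer1, the enzyme that cuts microRNA precursors, and a Cre recombinase driven by Afp sequences, which are active in fetal liver. The genotype of the controls is given only as control. All animals were 28 days old, of mixed strain and fasted for 5 h before they were killed, and 1 biotin-labelled array was made for each liver from 100 ng of total RNA. Afp-driven Cre acts in hepatoblasts and their descendants, so the Kupffer, stellate and endothelial cells of a mutant liver are not its target, and whole liver was measured. The labels name no litter, sex or processing batch, so a difference in these between the groups could not be told apart from genotype. The p-values set each group difference against the variation among livers within groups, which may be in part technical.

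The transcription factor p53 is kept low by MDM2, a ubiquitin ligase that marks it for degradation and is itself encoded by a p53 target gene. DNA damage and other stresses block this loop, p53 protein accumulates, and it switches on genes for cell cycle arrest, repair, apoptosis and metabolic control. Because p53 is regulated mostly as a protein, the mRNA of its targets is the usual transcript readout of its activity, although most of these targets also answer to other stress and nutrient signals. In liver the pathway is studied for its part in regeneration, polyploidy and tumour suppression.

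The DNA to which p53 binds is built from pairs of a decamer with a fixed consensus, and the promoter windows of the members were searched for it. Each window runs from 250 bases before to 50 bases after an annotated start in RefSeq sequence of build GRCm38.p6, and 9 of the 10 genes had at least 1 of 12 windows (Trp53inp1 had none in the table). The p53 decamer consensus reads the same on both strands, exact matches were counted, and no other motif was searched. It occurred in 6 of the 12 member windows and in 8.36% of all 32851 windows. A pair of decamers at most 13 bases apart occurred in 1 member window, the upstream start of Cdkn1a, and in 24 of all windows (0.0731%). The Cdkn1a and Ei24 windows are shown, the first because it holds the pair of decamers and belongs to the best known p53 target, the other because Ei24 was the member that differed between the groups. Capitals mark the decamers, which are GGACTAGCTT and GAACATGTCT, 12.0 bases apart, in Cdkn1a (chr17:29090729-29091028, plus strand) and GGGCATGCCC in Ei24 (chr9:36797285-36797584, minus strand). Exact matching leaves out decamers with a mismatch. In Cdkn1a the bases directly after GAACATGTCT, tgacatgttc, differ from the consensus only at the first base and were not counted. The marked pair therefore need not be the element that p53 binds. A match is a description of the letters in this window and says nothing of binding in these livers.
Cdkn1a upstream start: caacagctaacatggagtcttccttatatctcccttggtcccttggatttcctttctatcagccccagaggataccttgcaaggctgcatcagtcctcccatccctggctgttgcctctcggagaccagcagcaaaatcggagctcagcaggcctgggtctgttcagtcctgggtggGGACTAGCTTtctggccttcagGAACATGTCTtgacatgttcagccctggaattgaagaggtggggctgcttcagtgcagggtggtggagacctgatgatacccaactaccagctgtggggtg
Ei24: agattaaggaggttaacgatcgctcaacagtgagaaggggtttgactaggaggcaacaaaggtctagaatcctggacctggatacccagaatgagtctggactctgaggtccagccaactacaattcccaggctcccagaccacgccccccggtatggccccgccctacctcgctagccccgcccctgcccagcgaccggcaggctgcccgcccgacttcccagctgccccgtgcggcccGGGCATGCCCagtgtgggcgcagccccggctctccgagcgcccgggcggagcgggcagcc

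MicroRNAs connect Dicer1 to this pathway at more than 1 point, and mature microRNAs themselves were not measured here. The miR-34 family is transcribed under the control of p53, and members of the miR-17 and miR-106b family are known to repress Cdkn1a mRNA. Their mature RefSeq sequences are given with the seed, bases 2 to 8, in capitals. The miR-34 members share the seed GGCAGUG and the other 4 share the seed AAAGUGC.
mmu-miR-34a-5p: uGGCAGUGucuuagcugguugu
mmu-miR-34b-5p: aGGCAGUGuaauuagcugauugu
mmu-miR-17-5p: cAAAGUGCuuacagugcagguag
mmu-miR-20a-5p: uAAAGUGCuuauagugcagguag
mmu-miR-93-5p: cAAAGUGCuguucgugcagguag
mmu-miR-106b-5p: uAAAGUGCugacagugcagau

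Values are log2 signals as deposited, and differences are mutant minus control with a 95% confidence interval from limma. A probe set was called at a Benjamini-Hochberg adjusted p under 0.05 over all 25958 probe sets. Each Dicer1 probe set read lower in every mutant than in any control, with differences of -2.31 and -1.03 (adjusted p = 4.1e-05 and 0.000678), although it is not known here whether these probe sets lie in the deleted part. Mutant liver 5 stood apart from the other mutants over all probe sets: on component 1 of a principal component analysis the other 4 mutants lay between 33.35 and 62.19, mutant liver 5 at -15.41 and the controls between -45.82 and -25.59. Calls that it changed are also given without it. All 7 measured hepatocyte markers lay above the floor and 0 were called. Over all 12366 genes, each on its probe set with the highest mean, 7.29% were called higher and 9.56% lower. Among markers of other cells, 5 of 12 Kupffer and macrophage markers were higher and 0 lower (summed linear signal 21461 to 30304 in mutant livers and 12169 to 20760 in control livers). Likewise 5 of 10 stellate and fibroblast markers were higher and 0 lower (23114 to 35204 in mutant livers and 17560 to 20397 in control livers). Most of these sums was Col3a1 and Dcn, and Dcn was not called over all livers (adjusted p = 0.0519). Without mutant replicate 5, 8 of these 10 markers were higher, with Dcn, Col1a1 and Col1a2 added. In that comparison 9.92% of all genes were called higher and 16.1% lower. Of 6 biliary and progenitor markers 1, Prom1, was higher (16.7% called, near the 16.8% of all genes), and Krt7 and Cftr lay below the floor. Summed signals were 487 to 2432 in mutant livers and 117 to 239 in control livers. Most of the sum in mutant livers was Prom1 itself, and the other 5 markers did not pass. Of 9 sinusoidal endothelial markers 1, Lyve1, was lower (11.1% called), and 2 were lower without mutant replicate 5, with Kdr added. Their summed signals overlapped, at 7543 to 8823 in mutant livers and 7834 to 10611 in control livers. The part of these shifts in the results below was not tested.

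Across the p53 members, 1 of 16 probe sets was called, the single probe set of Ei24, and it was lower in mutants. Over all probe sets 5.8% were called higher, 7.39% lower and 13.2% in either direction, so 1 of 16 lies below that share. For Trp53inp1 and for Btg2, 1 of 2 probe sets stood higher in mutants by more than 1 on the log2 scale but did not pass the threshold. Mdm2 and Sesn1 had differences near 0 with narrow intervals, whereas Cdkn1a varied so much within each group that differences of more than 1 in either direction were compatible with its interval. The median difference was 0.069 over the 16 probe sets and -0.0056 over all probe sets, and with 1 probe set per gene, that of the highest mean, it was 0.33 over the 8 measured members and -0.012 over all 12366 genes. An unadjusted p under 0.05 was reached by 3 of the 16 member probe sets and by 7441 of all 25958.

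**Figure D1:**
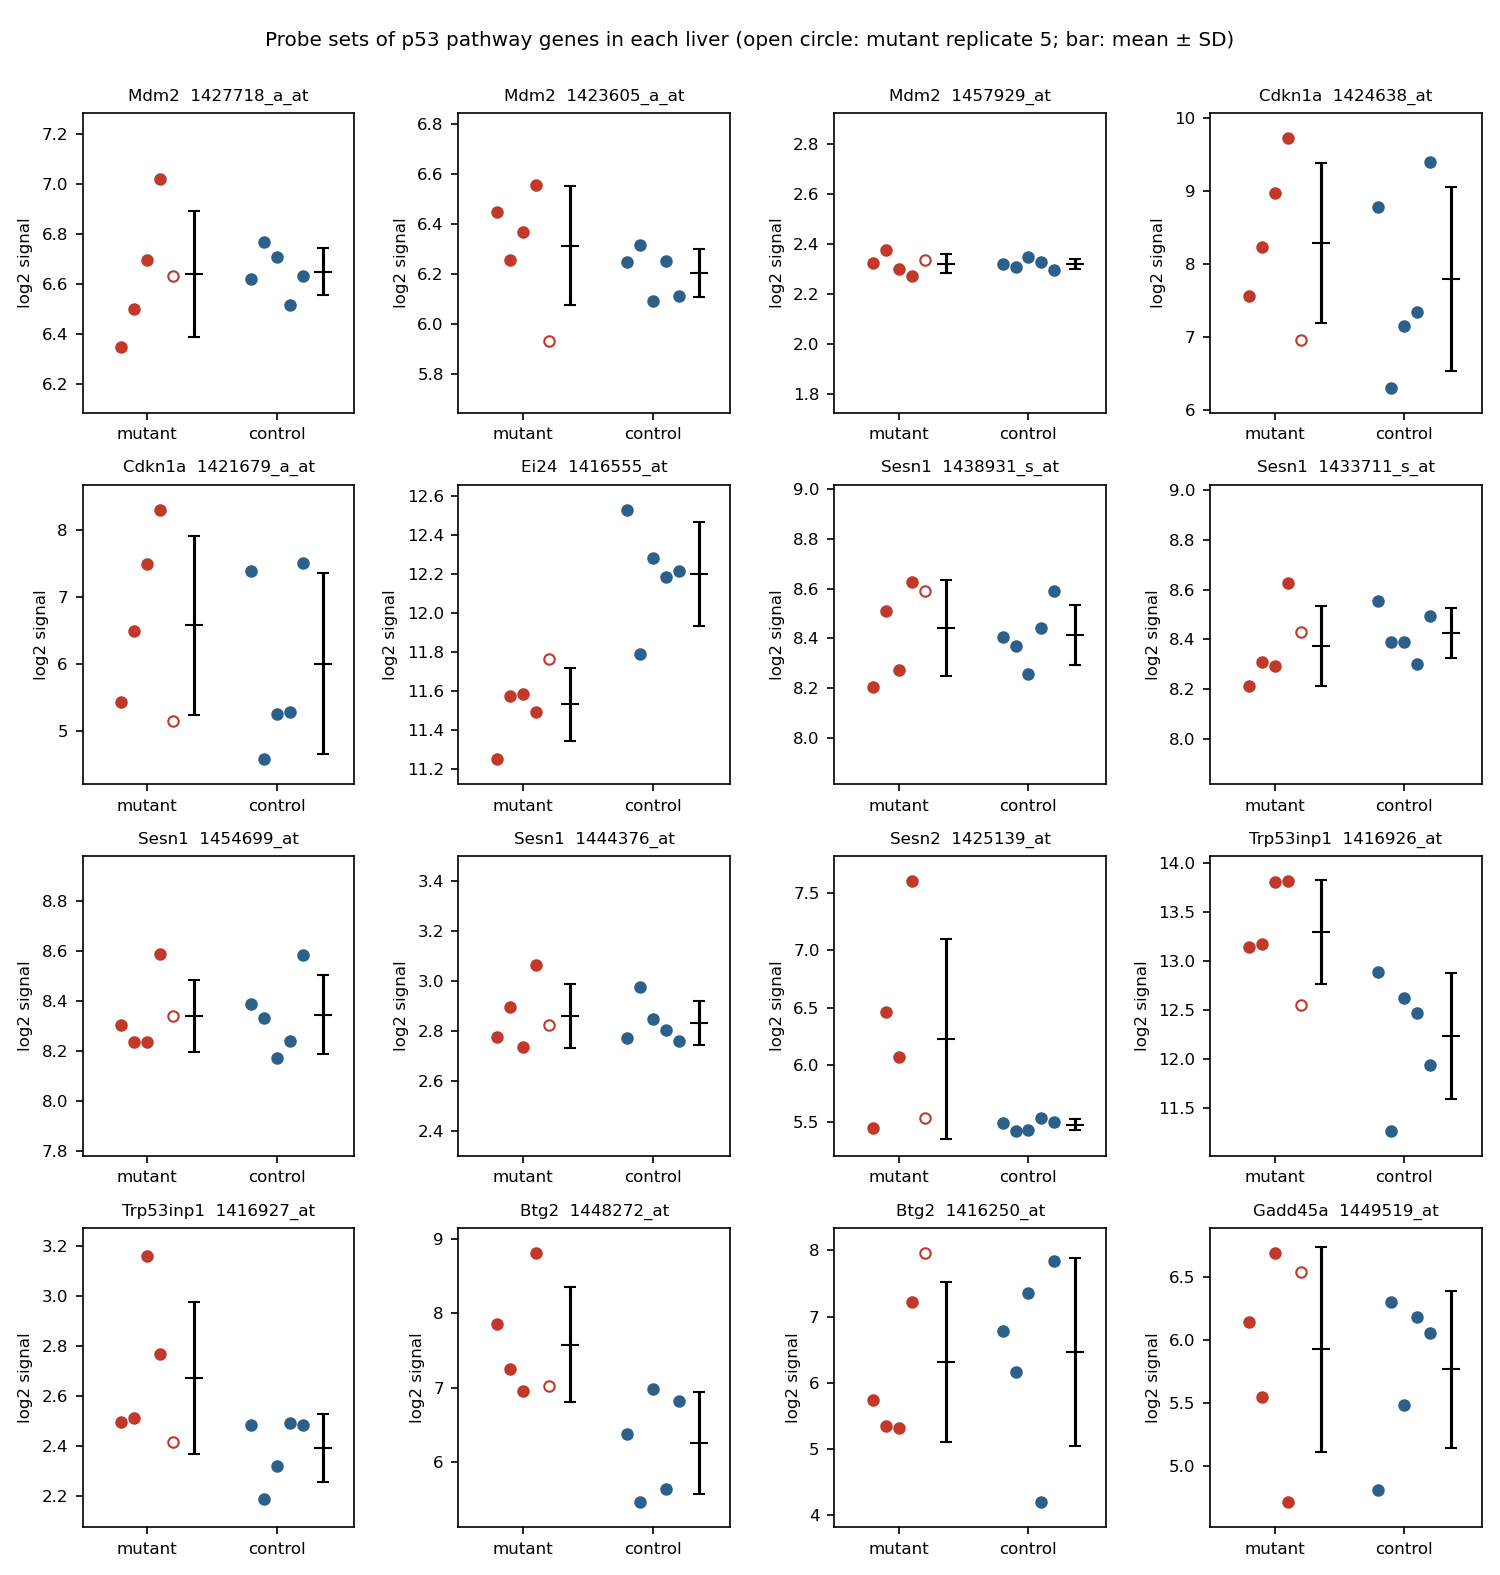
Log2 signal (y axes) of the 16 probe sets of the p53 pathway members in 5 mutant livers (red, left) and 5 control livers (blue, right), with each group's mean and SD as a black bar and mutant replicate 5 as an open circle. The groups separate on the Ei24 probe set only, where mutants run from 11.25 to 11.77 and controls from 11.79 to 12.53.

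Ei24 encodes a membrane protein of the endoplasmic reticulum that was found as a gene induced by p53 and takes part in autophagy. Its signal, in order of replicate number, was 11.25, 11.57, 11.59, 11.49 and 11.77 in mutant livers, against 12.53, 11.79, 12.28, 12.18 and 12.21 in control livers. All mutants lay below all controls, although the highest mutant (replicate 5, 11.77) and the lowest control (replicate 2, 11.79) nearly touched. Ei24 averaged 11.53 ± 0.19 in mutant livers and 12.20 ± 0.27 in control livers (SD, n = 5 each), a difference of -0.67 (SE 0.14, 95% confidence interval -0.97 to -0.36, adjusted p = 0.0181). Groups did not overlap for 5.32% of all probe sets with the mutants lower and for 10.3% in either direction. Without mutant replicate 5 the difference was -0.72 (adjusted p = 0.00865), and the call was kept when any 1 of the 10 livers was left out (adjusted p up to 0.0468). In whole liver a smaller number of the cells that express a gene and less of its RNA per cell cannot be told apart.

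Trp53inp1, a p53-induced nuclear and autophagy protein that in turn promotes p53 activity, was measured by 2 probe sets. On the brighter one its signal was 13.14, 13.17, 13.80, 13.81 and 12.55 in mutant livers, against 12.89, 11.27, 12.62, 12.47 and 11.94 in control livers. The 4 mutants other than replicate 5 lay above all controls, replicate 5 lay within them, and control replicate 2 was the lowest liver. The means were 13.29 ± 0.53 in mutant livers and 12.24 ± 0.64 in control livers (SD, n = 5 each), a difference of 1.06 (SE 0.35, 95% confidence interval 0.28 to 1.84, adjusted p = 0.074). Without mutant replicate 5 the difference was 1.24 and passed the threshold (SE 0.34, adjusted p = 0.0327). In that comparison of 4 mutants 8.15% of all probe sets were called higher, 12.3% lower and 20.5% in either direction. Its other probe set lay below the floor, at 2.67 ± 0.30 in mutant livers and 2.39 ± 0.14 in control livers, and differed by 0.28 (adjusted p = 0.235). Leaving out dim probe sets or weighting the arrays by quality also brought the brighter probe set past the threshold (adjusted p = 0.0492 and 0.0493).

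Btg2 and Gadd45a act in growth arrest. BTG2 is an antiproliferative protein that recruits the CCR4-NOT deadenylase to mRNA, and GADD45A is a small stress protein that binds cell cycle and repair factors. The Btg2 probe set with the higher mean read 7.86, 7.25, 6.95, 8.81 and 7.02 in mutant livers, against 6.38, 5.46, 6.98, 5.64 and 6.82 in control livers. Mutant replicate 4 was the highest liver, 4 of 5 mutants lay above all controls, and mutant replicate 3 lay just below the highest control. Its means were 7.58 ± 0.78 in mutant livers and 6.26 ± 0.68 in control livers (SD, n = 5 each), a difference of 1.32 (SE 0.43, 95% confidence interval 0.36 to 2.29, adjusted p = 0.0726). It passed the threshold when array medians were subtracted (adjusted p = 0.0465), when dim probe sets were left out (0.0477) and with array weights (0.0397), and in 0 of the 10 fits without 1 liver. The other Btg2 probe set did not show the same order of livers, with 5.73, 5.34, 5.32, 7.21 and 7.96 in mutant livers, against 6.78, 6.16, 7.36, 4.19 and 7.83 in control livers. It was widely spread in both groups and its difference was -0.15 (SE 0.77, 95% confidence interval -1.88 to 1.59, adjusted p = 0.958). So the 2 probe sets of Btg2 disagreed, and which of them tracks the full-length mRNA is not known here.

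Gadd45a read 6.14, 5.55, 6.69, 4.71 and 6.54 in mutant livers, against 4.81, 6.30, 5.48, 6.18 and 6.06 in control livers. The groups overlapped over nearly their whole range, and the lowest livers were mutant replicate 4 and control replicate 1. The difference was 0.16 (SE 0.42, 95% confidence interval -0.80 to 1.11, adjusted p = 0.887).

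Cdkn1a encodes p21, the cyclin-dependent kinase inhibitor through which p53 halts the cell cycle. On the brighter of its 2 probe sets the signal was 7.57, 8.23, 8.98, 9.73 and 6.96 in mutant livers, against 8.78, 6.31, 7.14, 7.35 and 9.40 in control livers. The highest liver was mutant replicate 4 and the lowest control replicate 2, while control replicate 5 stood above 4 of the 5 mutants and control replicate 1 above 3. Means were 8.29 ± 1.10 in mutant livers and 7.79 ± 1.26 in control livers (SD, n = 5 each), and the difference was 0.50 (SE 0.69, 95% confidence interval -1.06 to 2.06, adjusted p = 0.719). The dimmer probe set gave 5.44, 6.50, 7.49, 8.30 and 5.15 in mutant livers, against 7.39, 4.58, 5.25, 5.28 and 7.51 in control livers. It ranked mutant replicate 4 highest and control replicate 2 lowest as well, and differed by 0.57 (SE 0.79, 95% confidence interval -1.20 to 2.35, adjusted p = 0.713). Over the 10 livers the 2 probe sets moved together (Pearson r = 0.99), so the spread within each group was common to both and not particular to 1 probe set. Without mutant replicate 5 the differences were 0.83 and 0.93 (adjusted p = 0.475 and 0.489). A Cdkn1a change of the size of that of Ei24 was not detectable with this spread in 5 livers a group.

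**Figure D2:**
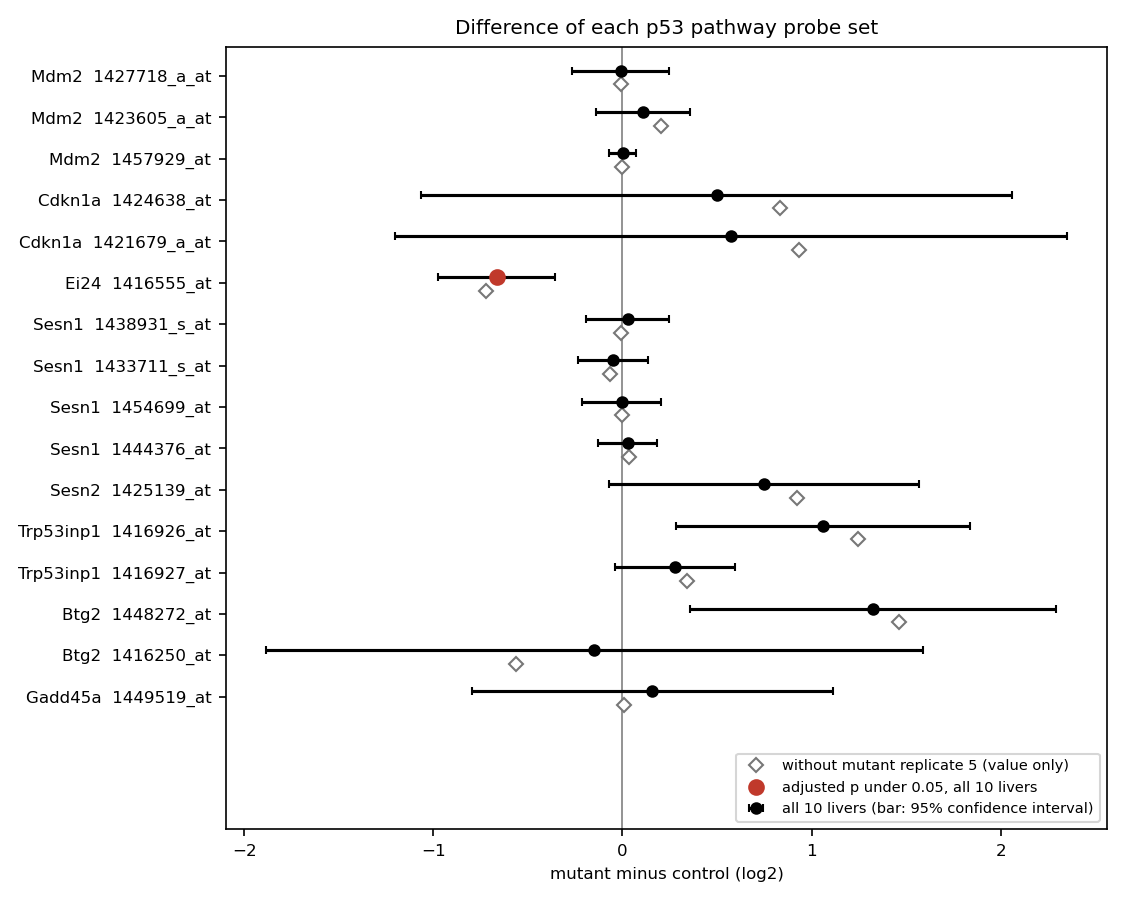
Mutant minus control difference on the log2 scale (x axis) of each probe set (rows), with its 95% confidence interval over all 10 livers (circles and bars) and the value without mutant replicate 5 (open diamonds). Ei24, in red, at -0.67, is the probe set that was called, and the intervals of Cdkn1a, from -1.20 to 2.35 on its dimmer probe set, are much wider than those of Mdm2 and Sesn1.

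Mdm2, the ubiquitin ligase for p53, was measured by 3 probe sets. The first read 6.35, 6.50, 6.70, 7.02 and 6.63 in mutant livers, against 6.62, 6.77, 6.71, 6.52 and 6.63 in control livers, and its groups overlapped around nearly equal means, with a difference of -0.0096 (SE 0.11, 95% confidence interval -0.27 to 0.25, adjusted p = 0.988). On the next, the difference was 0.11 (SE 0.11, 95% confidence interval -0.14 to 0.36, adjusted p = 0.593), and without mutant replicate 5, the lowest liver on it at 5.93, it was 0.20 (adjusted p = 0.0919). The third lay below the floor, between 2.27 and 2.38 in mutant livers and between 2.30 and 2.35 in control livers. On both probe sets above the floor the intervals over all livers left out any change of Mdm2 signal larger than 0.36 on the log2 scale. This bound was not worked out without mutant replicate 5.

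The sestrins restrain the growth kinase complex mTORC1 under stress, and SESN2 also senses leucine. For Sesn1, the 3 probe sets above the floor differed by 0.029, -0.051 and -0.0046, with intervals that together ran from -0.24 to 0.25 (adjusted p from 0.768 to 0.995). Its first probe set read 8.20, 8.51, 8.27, 8.63 and 8.59 in mutant livers, against 8.41, 8.37, 8.26, 8.44 and 8.59 in control livers, with mutant replicate 4 and control replicate 5 highest in their groups. The remaining Sesn1 probe set lay below the floor in all livers, at 2.86 ± 0.13 in mutant livers and 2.83 ± 0.087 in control livers. Sesn2 gave a different picture, with 5.45, 6.47, 6.07, 7.61 and 5.54 in mutant livers, against 5.49, 5.42, 5.43, 5.53 and 5.50 in control livers. The 5 controls lay within 5.42 to 5.53, while mutant replicates 2, 3 and 4 stood clearly above them and replicates 1 and 5 were at or near the control level. Means were 6.23 ± 0.88 in mutant livers and 5.48 ± 0.046 in control livers (SD, n = 5 each), and the difference was 0.75 (SE 0.36, 95% confidence interval -0.070 to 1.57, adjusted p = 0.213), with 0.92 (adjusted p = 0.119) without mutant replicate 5 and 0.40 (adjusted p = 0.248) without replicate 4. The SD of Sesn2 was 0.88 among mutants and 0.046 among controls, an inequality that the model, which assumes 1 spread, does not describe.

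Mutant replicate 4 was the highest mutant on 10 of the 13 member probe sets above the floor, and the lowest on 1, that of Gadd45a. Mutant replicate 5 was the highest on 2 of them and the lowest on 4, among them both Cdkn1a probe sets and Trp53inp1. Among controls, replicate 5 was highest on 5 probe sets and replicate 2 lowest on 6. Deviations from the group means of Cdkn1a ran alongside those of Trp53inp1 (r = 0.62), Sesn2 (r = 0.59) and Btg2 (r = 0.56) and against those of Gadd45a (r = -0.50), each over 10 livers on the brightest probe set of the gene. These correlations are descriptions of 10 arrays that also share RNA quality and cell makeup.

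**Figure D3:**
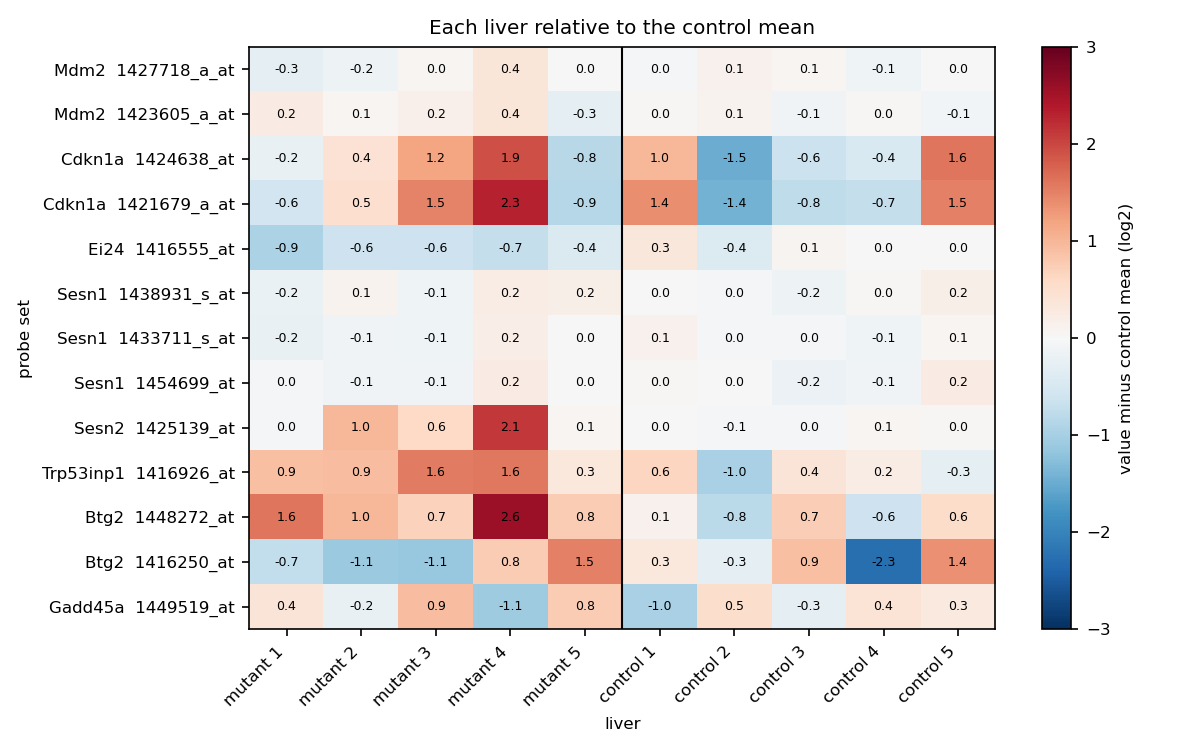
Log2 signal minus the control mean (colour and printed value) of the 13 member probe sets above the floor (rows) in mutant livers 1 to 5 and control livers 1 to 5 (columns). Ei24 is below the control mean in all 5 mutants, and mutant 4 has the highest values of Cdkn1a, Sesn2 and the brighter Btg2 probe set.

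Among 12365 other genes, those whose signal ran most like Cdkn1a over the 10 livers by Pearson correlation were Ap1g1 (r = 0.94, and 0.95 for deviations from the group means), Cryzl1 (r = 0.91, and 0.92 for deviations from the group means) and Txndc15 (r = 0.90, and 0.89 for deviations from the group means). Like Cdkn1a, these 3 genes did not pass the test between groups (adjusted p from 0.442 to 0.962). Those most like Ei24 were Kifc2 (r = 0.96, and 0.89 for deviations from the group means), Cnmd (r = 0.96, and 0.85 for deviations from the group means) and Dnaja3 (r = 0.96, and 0.88 for deviations from the group means). All 3 were lower in mutants, with log2 differences of -0.40, -2.66 and -0.32 (adjusted p = 0.0304, 0.00724 and 0.0398). Because the neighbours of both genes were picked by correlation over these same livers, their group differences largely follow from that choice and are no separate result.

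Of 27 measured genes of a list of 33, each on its brightest probe set, 2 were higher, 2 were lower and 23 did not pass, 14.8% called, near the 16.8% of all 12366 genes (7.29% higher and 9.56% lower). The higher ones were Rrm2b, the p53-inducible subunit of ribonucleotide reductase, and Ccng1, cyclin G1, which is also a known target of miR-122. The lower ones were Aen, an apoptosis-enhancing nuclease, and Tigar, a phosphatase that lowers the level of a sugar phosphate that activates glycolysis. The median difference of the list was 0.063, beside -0.012 over all genes. Without mutant replicate 5, 3 were higher and 3 lower, where 9.92% of all genes were called higher, 16.1% lower and 26% in either direction. The genes added were Apaf1, the scaffold of the apoptosome, which was higher by 0.50 (adjusted p = 0.035), and Bbc3, which was lower. Over all livers the 2 Apaf1 probe sets differed by 0.015 and 0.40.

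Rrm2b read 7.45, 7.58, 7.56, 7.70 and 6.62 in mutant livers, against 6.59, 6.28, 6.32, 6.29 and 5.80 in control livers. All mutants lay above all controls, with replicate 5 lowest among mutants, and the difference was 1.12 (SE 0.22, adjusted p = 0.0154), while its 4 probe sets ran from 0.28 to 1.44. Ccng1 read 10.22, 10.34, 10.58, 10.85 and 9.78 in mutant livers, against 9.38, 9.48, 9.65, 9.36 and 9.70 in control livers. Again all mutants lay above all controls, by a difference of 0.84 (SE 0.18, adjusted p = 0.0207), but its 3 probe sets ran from -0.44 to 0.84, and the call was lost without control replicate 4 (adjusted p = 0.0505). Aen read 5.88, 5.36, 5.61, 6.10 and 6.44 in mutant livers, against 7.03, 6.94, 7.01, 6.97 and 6.86 in control livers. Its mutants were all lower than its tightly grouped controls, with a difference of -1.08 (SE 0.18, adjusted p = 0.00991) and -1.85 on its other probe set. Tigar differed by -0.90 (SE 0.23, adjusted p = 0.0373), a call that was kept when mutant replicate 5 was left out and lost when any other liver was (adjusted p reaching 0.0874). Its other probe set differed by -0.39. The classical p53 targets Zmat3, an RNA-binding protein, and Phlda3, an inhibitor of the kinase AKT, had differences of 0.21 (SE 0.20, adjusted p = 0.558) for Zmat3 and -0.14 (SE 0.24, adjusted p = 0.788) for Phlda3. Plk3, a polo-like kinase of the stress response, had the largest difference of the list, 1.67 (SE 0.71, adjusted p = 0.16), and did not pass. Bbc3, which encodes the BH3-only protein PUMA, differed by -0.51 (SE 0.17, adjusted p = 0.0836), and by -0.66 without mutant replicate 5 (adjusted p = 0.00409).

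Of 22 measured regulators and cofactors of p53, out of 25 listed, 2 were higher, 2 were lower and 18 did not pass (18.2% called, against 16.8% of all genes). Hipk2, a kinase that phosphorylates p53, was higher by 0.64 (SE 0.12, adjusted p = 0.0125), on probe sets that ran from 0.0011 to 0.79. Cop1, a ubiquitin ligase for p53, was lower by a small but even margin, with 10.59, 10.71, 10.62, 10.73 and 10.67 in mutant livers, against 11.04, 10.88, 11.09, 10.99 and 11.05 in control livers. No mutant reached the lowest control, and the difference was -0.35 (SE 0.049, adjusted p = 0.00714). The calls of Hipk2 and Cop1 held whichever liver was left out. Trp53bp1, a scaffold of DNA break repair, was higher by 0.56 (SE 0.13, adjusted p = 0.0277). Atr, the kinase of replication stress, was lower, at -0.64 (SE 0.17, adjusted p = 0.0393), and its 3 probe sets ran from -0.64 to -0.19. Without 1 liver, the Trp53bp1 call held only when mutant replicate 5 or control replicate 2 was the one left out, and the Atr call only when it was mutant replicate 3 or 5 (adjusted p up to 0.0677 and 0.0919 otherwise). Mdm4, the partner of MDM2 in holding p53 in check, differed by 0.16 (SE 0.070, adjusted p = 0.162), and its 3 probe sets ran from -0.16 to 0.16. The median difference of the list was 0.070. Without mutant replicate 5, 2 regulators were higher and 5 lower, where 9.92% of all genes were higher and 16.1% lower. Those added were Rpl11, a ribosomal protein that binds MDM2, Atm, the kinase of DNA breaks, and Rchy1, another ubiquitin ligase for p53, all lower, at -0.31, -0.69 and -0.42 (adjusted p = 0.00172, 0.0144 and 0.0319).

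**Figure D4:**
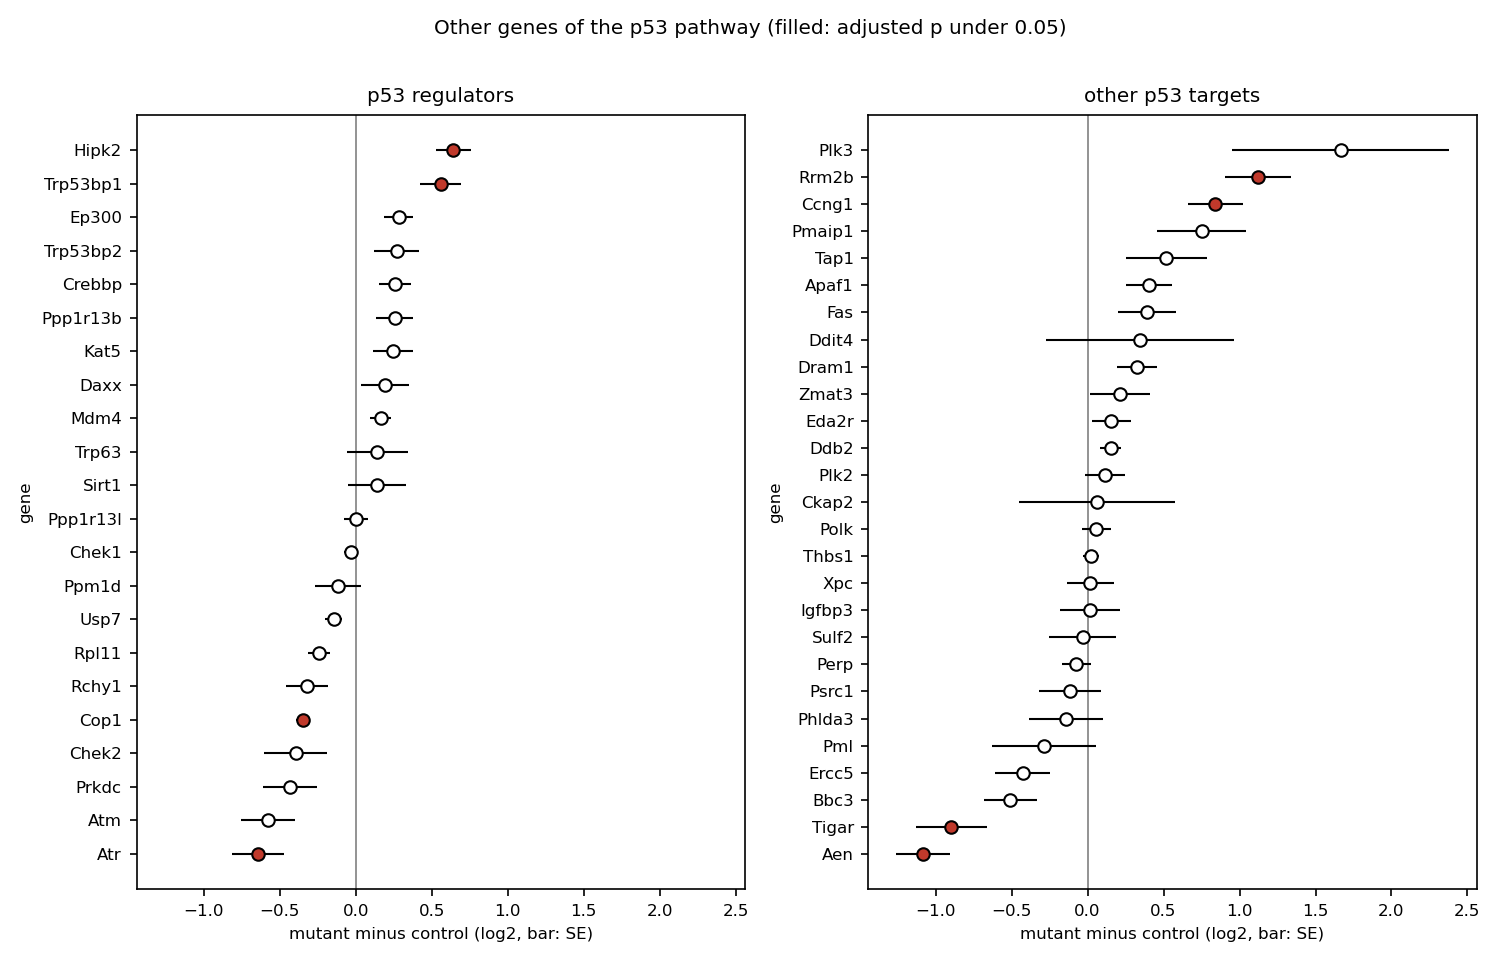
Mutant minus control difference on the log2 scale with its SE (x axis) for each measured p53 regulator (left) and other p53 target (right), 1 brightest probe set for each gene, filled where the adjusted p was under 0.05. Filled points lie on both sides of 0 in both lists, from -1.08 for Aen to 1.12 for Rrm2b.

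Relatives of the members were set beside them. Of 10 measured genes of the sestrin, BTG, GADD45, TP53INP and p21 families, 2 were higher and 0 lower (20% called, near the 16.8% of all genes). Cdkn1c, which encodes p57, a relative of p21 with imprinted expression, was higher by 2.24 (SE 0.32, adjusted p = 0.00728), with no overlap of the groups. Of 2 Sesn3 probe sets, 1 was higher, by 0.58 (SE 0.16, adjusted p = 0.0438), and the other differed by -0.13. This was a call that held without mutant replicate 5 or control replicate 5 and was lost without any other liver (adjusted p up to 0.0949). Gadd45b had a large difference that did not pass, with 8.47, 10.73, 8.18, 10.16 and 5.65 in mutant livers, against 6.46, 5.13, 6.41, 6.33 and 5.13 in control livers. The 4 other mutants stood above all controls and mutant replicate 5 within them, the difference was 2.75 (SE 0.87, adjusted p = 0.0686), and without mutant replicate 5 it was 3.49 (adjusted p = 0.0049). These values are from the brightest of its 3 probe sets, whose differences over all livers ran from 0.20 to 2.78.

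Several members also respond to signals other than p53, and lists for these were read in the same livers. ATF4, the transcription factor of the integrated stress response, induces Sesn2 and Gdf15 as well. Of 11 measured genes of an ATF4 list, 1 was higher, the autophagy receptor Sqstm1 at 0.41 (SE 0.11, adjusted p = 0.044), and 1 was lower, the glutathione-degrading enzyme Chac1 at -2.03 (SE 0.46, adjusted p = 0.0234). These are 18.2% of the list, beside 16.8% of all genes. The Sqstm1 call was kept only without mutant replicate 5 among the 10 fits without 1 liver, and was lost with array medians subtracted (adjusted p = 0.0659). The Chac1 call was lost without mutant replicate 4 or control replicate 3 or 4. Immediate early genes, to which Btg2 is often counted, gave 1 higher and 0 lower of 9 measured, the higher one being the transcription factor Klf6 at 1.49 (SE 0.28, adjusted p = 0.0139), whose 5 probe sets ran from 0.068 to 1.79. That is 11.1% of the list called, and the median difference of the list was 0.72, beside -0.012 over all genes. Of 12 measured genes of S phase and mitosis, many of them repressed downstream of p53 and p21, 0 were higher and 0 lower by limma, and 0 had an unadjusted p under 0.05, with differences between -0.88 for Aurka and 0.45 for Ccnb2. Of these, Aurka, Plk1 and Mybl2 lay below the floor.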

How the data were processed

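Amplified and biotin-labelled liver RNA of 10 mice was read on Affymetrix mouse arrays, per the labels and the platform of the probe table. The deposited values, 1 per probe set and array, were taken as log2 signals. How the authors corrected, summarised and normalized them, and the log base, is not stated in the labels, and the scale was inferred from the range (0.27 to 16.65, array medians 6.40 to 6.67). Groups and replicate numbers came from the sample titles. After 37 array controls were left out, 25958 probe sets were tested, of which 21613 had 1 symbol, 638 several and 3707 none. Symbols were checked through gene identifiers against RefSeq genes of GRCm38.p6: 0 changed and 61 probe sets had no match. Pairs of arrays correlated between 0.970 and 0.993, and 0 were identical.

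The 2-group comparison used limma 3.58.1 (lmFit, eBayes) under R 4.3.3. Its two-sided p-values were adjusted by Benjamini-Hochberg across the 25958 probe sets. In lists each of 12366 genes was represented by its probe set with the highest mean. The test was checked on simulated data. The small number of arrays limits the precision.

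The members and lists were chosen with earlier results of these data known. Named genes were all members, Dicer1, up to 6 called genes of each list by smallest p, and the 3 genes most correlated with Cdkn1a and with each called member, while uncalled genes (Zmat3, Phlda3, Plk3, Mdm4, Bbc3, Gadd45b and the genes called without mutant replicate 5) were added after their values were seen. Alternatives were quantile, median and 75th percentile scaling, a filter on dim probe sets, 1 probe set per gene, moderation with trend or robust options, array weights, a replicate block and leaving out each liver.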

Additional observations from a re-analysis of the deposited data

Results flagged for a closer look

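In 3 of 62 groups of 5 livers (31 probe sets of the members, Dicer1 and the named genes of the lists), 1 liver lay far from the other 4 by Dixon's criterion, which chance alone meets in about 1 group in 20. None of the 3 was on a probe set of a p53 member. For Rrm2b, mutant replicate 5 read 6.62 and the other mutants 7.45 to 7.70. For Cdkn1c, control replicate 4 read 5.88 and the other controls 6.07 to 6.11. For Chac1, control replicate 4 read 8.85 and the other controls 7.94 to 8.20.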

How the results depend on the processing

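The count of member probe sets called lower, 1 (Ei24), was the same under every alternative but the replicate block, and the count called higher, 0, was 1 with array medians subtracted and 2 with dim probe sets left out or with array weights, from Btg2 and Trp53inp1. Without 1 liver it ran from 0 to 1. The groups share replicate numbers, but the numbers did not pair the livers: deviations of same-numbered livers correlated between -0.18 and 0.15, and 1 of 5 mutants correlated best with its own number. With the replicate block, 0 member probe sets were called lower (Ei24 adjusted p = 0.0581), 1 other p53 target was higher, and 1 regulator was higher and 1 lower, where 907 probe sets in all were higher, against 1505 without the block. It also ended the calls of Atr, Ccng1, Chac1, Klf6, Sesn3, Tigar and Trp53bp1 (adjusted p = 0.0509 for Klf6 to 0.0905 for Sesn3) and kept those of Aen, Cdkn1c, Cop1, Dicer1, Hipk2, Rrm2b and Sqstm1. Regulators called lower numbered 4, against 2, with 1 probe set per gene or array weights. Without 1 liver, other targets ran from 1 to 3 higher and 1 to 3 lower, and regulators from 1 to 2 higher and 1 to 5 lower, with the highest counts of lower genes without mutant replicate 5. The counts over all probe sets ran from 776 to 2115 higher and from 770 to 3194 lower without 1 liver. The cause of these shifts was not tested.

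Differences near 0 that were not called changed sign. That of the first Mdm2 probe set was 0.0070, 0.0037 and 0.019 under quantile, median and 75th percentile scaling and -0.11 to 0.063 without 1 liver. The Mdm2 probe set below the floor gave -0.00075 and -0.0079 under quantile scaling and array weights and -0.013 to 0.013 without 1 liver. For Sesn1, the first probe set gave -0.018 with array weights and -0.018 to 0.088 without 1 liver, the third gave 0.023, 0.0087, 0.024 and 0.017 under quantile, median and 75th percentile scaling and array weights and -0.066 to 0.056 without 1 liver, and the one below the floor -0.024 to 0.063. The second Btg2 probe set gave 0.035 with array weights and -0.72 to 0.19 without 1 liver, and Gadd45a -0.082 to 0.46.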
